A study of Mus musculus with 38 samples.

Results

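The tumour suppressor p53 switches on, among many other genes, a set whose products take part in cell death. The genes described here are 10 such targets: Bax, Bbc3, Pmaip1, Apaf1, Fas, Tnfrsf10b, Perp, Ei24, Aen and Phlda3. They were chosen by name, with earlier results of these data known. Their probes were found through the transcript accession that each array file gives for a probe. All 10 were on the array, among 20018 genes with a symbol, and had 11 of the 55681 probes tested, since Aen had 2. Where a gene had more than 1 probe the brightest is reported, and the second Aen probe is given where its call differed.

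Male MutaMouse, a transgenic strain used in mutation assays, aged about 10 weeks, received dibenz(a,h)anthracene (DBahA) in olive oil by oral gavage each day for 28 days. DBahA is a polycyclic aromatic hydrocarbon whose metabolites bind DNA. Group D1 received 6.25 mg/kg-bw/day, group D2 12.5 and group D3 25. D0 mice received olive oil alone, and lung and forestomach were taken 72 h after the last dose. Lung RNA of 5, 5, 4 and 5 mice (D0 to D3) and forestomach RNA of 5, 5, 4 and 4 mice was measured on 38 two-colour Agilent arrays. At D3 there were 5 forestomach arrays, of which 2 carried mouse number 18, and these were averaged to 1 replicate. No forestomach array carried number 20. The second of the 2 lay on the slide that held the lung array of mouse 20, not on that of lung mouse 18. Whether it came from another mouse is not known. RNA came from whole pieces of tissue, so that fewer cells of a type and less RNA per cell cannot be told apart.

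Each value is a log2 ratio: log2 of the tissue signal (Cy5) over a reference RNA pooled from 11 mouse cell lines (Cy3). A log2 ratio of 0 is a signal equal to that reference, and ratios of different genes cannot be set against each other. A gene was called changed when the Benjamini-Hochberg adjusted p from limma, over all probes, was at most 0.05 and the fold change was at least 1.5.

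DNA damage stabilises p53, which then binds paired short motifs near its target genes. In the mitochondrial route its targets Bbc3 and Pmaip1 release Bax from restraint, Bax opens the outer mitochondrial membrane, and released cytochrome c assembles with Apaf1 into the complex that activates caspases. In the receptor route, Fas and Tnfrsf10b on the cell surface activate caspases directly.

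In lung, 3 of the 10 genes were higher than in D0 at D1 (Bax, Aen and Phlda3), 5 at D2 (also Ei24 and Pmaip1) and 6 at D3 (also Tnfrsf10b). None was lower. Of all probes, 0.138% were called higher in the D1 group, 0.253% in D2 and 0.555% in D3, and 0.0018%, 0.0108% and 0.0844% lower. All probes include dim ones. In a fit with dim probes left out, 83, 157 and 377 of 30790 probes were called in either direction. The 10 genes had a median log2 difference from D0 of 0.49, 0.66 and 0.60 with rising dose, against 0.00265, 0.00165 and -0.000549 over all probes. As the genes were chosen with earlier results of these data known, the shares over all probes are a description and not a test. The 3 comparisons share the same 5 D0 mice. In forestomach no member was called at any dose, as was no probe (0% at each dose).

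**Figure D1:**
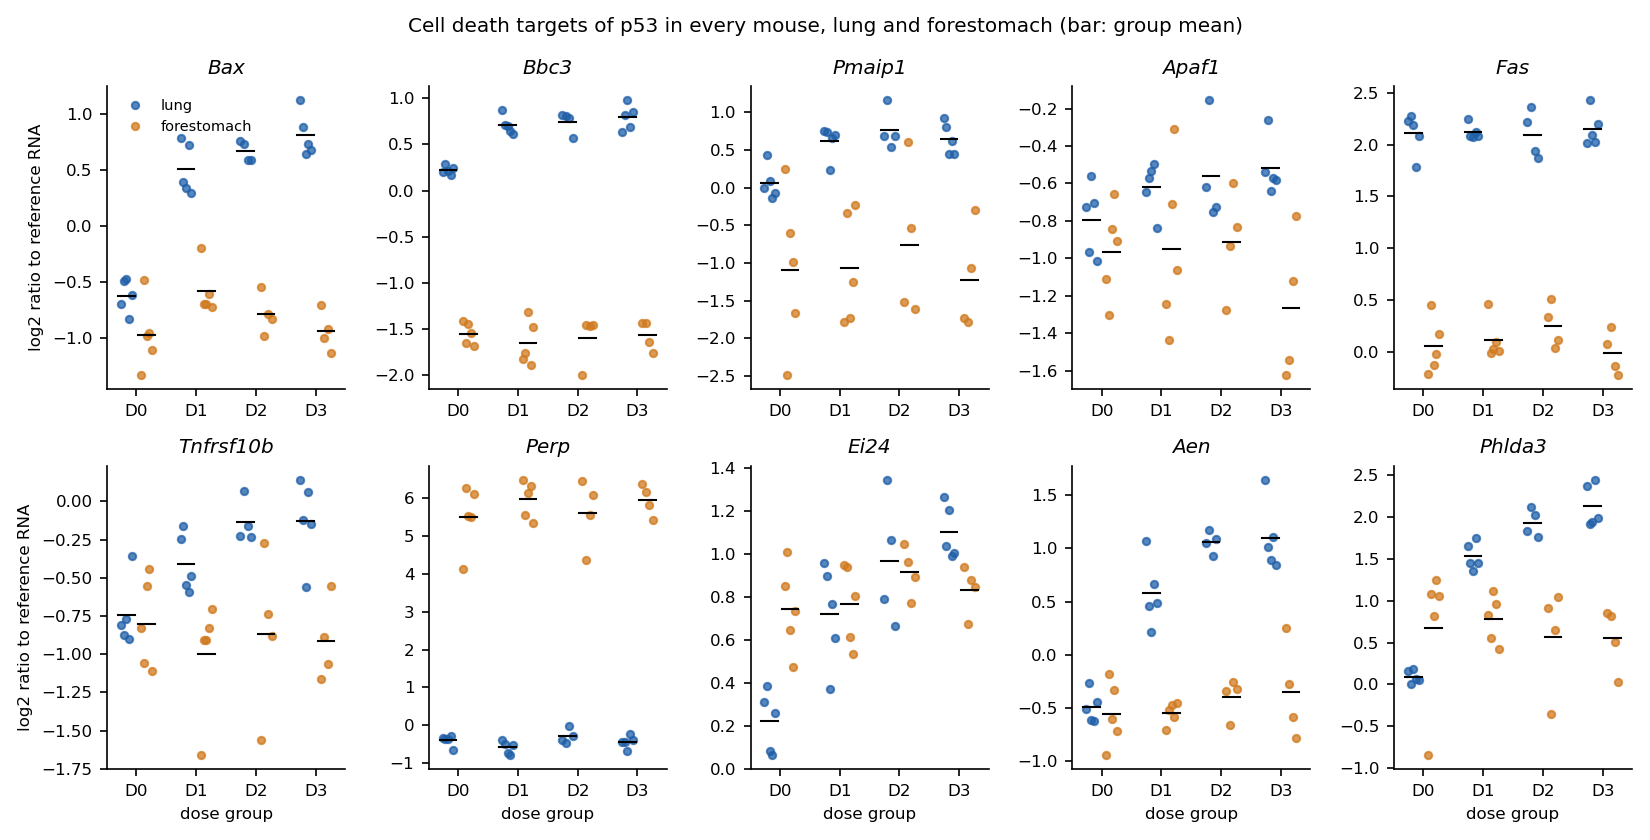
Log2 ratio to the reference RNA (vertical axis, a separate scale for each gene) in every mouse by dose group (horizontal axis), with lung in blue, forestomach in orange and the group mean as a black bar. In lung, every dosed mouse lies above every D0 mouse for Phlda3, Bax, Aen and Bbc3, while no forestomach dose group separates from its D0 group for any of the 10 genes.

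Promoter sequence is shown because several members rose together in lung. RefSeq windows on GRCm38.p6, running from 250 bases before to 50 bases after a transcription start, were at hand for 7 of the 10 genes. They were searched on both strands for the consensus p53 half-site, a motif of 10 bases that is its own reverse complement, with every base required to match. It was found in 3 genes (Bax, Aen and Ei24). Of all 27025 genes with a window, 9.55% have one in at least 1 of their windows, and of all 32851 windows 8.36% hold one. The 7 genes had 10 windows in all. No exact match was found in these windows of Phlda3, Bbc3, Apaf1 or Fas, which says only that these letters are absent there. The stretches below run 5′ to 3′ on the gene's strand, with the half-site in capitals. They are the 250 bases before the start of Bax (chr7:45466899-45467148, minus strand), Ei24 (chr9:36797335-36797584, minus strand) and Phlda3 (chr1:135765835-135766084, plus strand), and 30 bases around the half-site of Aen (chr7:78895927-78895956, plus strand).
Bax: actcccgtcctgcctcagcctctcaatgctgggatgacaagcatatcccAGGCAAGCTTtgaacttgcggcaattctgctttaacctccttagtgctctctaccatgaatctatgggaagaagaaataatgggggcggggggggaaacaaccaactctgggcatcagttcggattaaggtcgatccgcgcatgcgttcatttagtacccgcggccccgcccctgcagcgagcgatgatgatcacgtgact
Ei24: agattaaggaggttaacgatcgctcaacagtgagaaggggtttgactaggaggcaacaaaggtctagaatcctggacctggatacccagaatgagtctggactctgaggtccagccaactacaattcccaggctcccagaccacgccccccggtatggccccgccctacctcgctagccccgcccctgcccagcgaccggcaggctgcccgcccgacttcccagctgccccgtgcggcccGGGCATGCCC
Aen: agccgaagccGGGCTTGTCCgggcaaggag
Phlda3: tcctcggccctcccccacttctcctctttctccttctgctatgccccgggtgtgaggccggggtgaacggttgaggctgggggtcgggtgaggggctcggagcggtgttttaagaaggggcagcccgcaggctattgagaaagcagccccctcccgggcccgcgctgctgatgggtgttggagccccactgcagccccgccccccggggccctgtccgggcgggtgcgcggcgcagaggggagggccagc
The half-site begins 201 bases before the start in Bax and 10 bases before it in Ei24. Aen has 2 annotated starts, and its half-site begins 121 bases before the second of them and at base 11 of the transcript from the first. Phlda3, whose lung difference was the largest of the 10 genes, is shown for comparison.

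Among the genes of the mitochondrial route, Bax, which forms the membrane pore, had the largest lung difference. Its lung log2 ratios at D0 were -0.70, -0.50, -0.48, -0.83 and -0.62. They were 0.79, 0.39, 0.34, 0.72 and 0.29 at D1, 0.75, 0.73, 0.59 and 0.59 at D2 and 1.12, 0.88, 0.64, 0.73 and 0.67 at D3. Every D0 mouse was below 0 and every dosed mouse above it, so the groups did not overlap. The log2 difference from D0 was 1.13 at D1 (SE 0.109, adjusted p 1.06e-05), 1.29 at D2 (SE 0.116, adjusted p 3.33e-06) and 1.43 at D3 (SE 0.109, adjusted p 1.72e-07). On the linear scale these are rises of 2.19, 2.44 and 2.70-fold.

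Bbc3 encodes Puma, a BH3-only protein that binds and neutralises the protective Bcl2 proteins. Its D0 lung ratios lay close together, at 0.20, 0.29, 0.22, 0.17 and 0.25. The dosed mice stood at 0.87, 0.71, 0.70, 0.65 and 0.61 (D1), 0.82, 0.81, 0.79 and 0.57 (D2) and 0.64, 0.82, 0.98, 0.69 and 0.85 (D3). Again no dosed mouse overlapped D0. The adjusted p was 0.00425, 0.00199 and 0.000244 at the 3 doses, but the fold changes of 1.40, 1.44 and 1.49 stayed under 1.5, so Bbc3 was not called. At D3 this rests on the fold threshold. The gene was called with the log ratio of Feature Extraction and in 3 of 10 refits that each left out 1 mouse (D0 mouse 2, D3 mouse 16 or D3 mouse 19), with log2 differences between 0.59 and 0.61 in these 4 fits.

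Pmaip1 encodes Noxa, another BH3-only protein. Its lung ratios were -0.01, 0.44, 0.08, -0.14 and -0.08 at D0 and 0.75, 0.73, 0.23, 0.66 and 0.70 at D1. They were 0.68, 1.17, 0.54 and 0.69 at D2 and 0.92, 0.80, 0.45, 0.61 and 0.45 at D3. At D1, mouse 8 (0.23) fell below D0 mouse 2 (0.44), and at D3 the lowest mice (0.45) only just cleared it. The log2 difference was 0.55 at D1 (SE 0.134, adjusted p 0.154), 0.71 at D2 (SE 0.143, adjusted p 0.0232) and 0.59 at D3 (SE 0.134, adjusted p 0.0307), the last at the edge of the 1.5-fold threshold. The call at D3 held in 3 of 10 refits without 1 mouse and was lost without D0 mouse 1, 3, 4 or 5 or D3 mouse 16, 17 or 19, with log2 differences of 0.52 to 0.68. It was also lost in the authors' own table of log2 ratios (0.53) and with scan day as a block (0.53), where the fold fell under 1.5. At D2 it held in 4 of 9 and was lost without D0 mouse 1, 4 or 5 or D2 mouse 12 or 15, with log2 differences of 0.58 to 0.80. At D1 it was gained without mouse 8 (0.65, adjusted p 0.0468).

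Apaf1, the scaffold of the caspase-activating complex, was not called at any dose. Its group means in lung were -0.79 ± 0.191 (SD, n = 5) at D0, -0.62 ± 0.136 (n = 5) at D1, -0.56 ± 0.278 (n = 4) at D2 and -0.52 ± 0.149 (n = 5) at D3. The groups overlapped at every dose. The log2 difference at D3 was 0.27 (95% interval 0.04 to 0.51, adjusted p 0.344).

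Of the 2 death receptors, Fas was called in lung at no dose and Tnfrsf10b at D3. Fas ratios ran from 1.79 to 2.27 at D0 and from 2.01 to 2.43 at D3. The log2 differences from D0 were 0.01, -0.02 and 0.04 with rising dose, with a 95% interval at D3 of -0.18 to 0.26, which leaves out a 1.5-fold change in either direction. Tnfrsf10b, the mouse receptor for the death ligand Tnfsf10 (TRAIL), had D0 ratios of -0.81, -0.87, -0.77, -0.90 and -0.36. Its ratios were -0.24, -0.16, -0.55, -0.59 and -0.49 at D1, -0.23, 0.07, -0.16 and -0.23 at D2 and 0.14, -0.12, -0.56, 0.06 and -0.15 at D3. D0 mouse 5 (-0.36) stood above the other D0 mice, and D3 mouse 18 (-0.56) lay below it, so these groups overlapped, while the D2 mice were all above D0. The log2 difference was 0.33 at D1 (adjusted p 0.655), 0.60 at D2 (SE 0.135, adjusted p 0.058) and 0.62 at D3 (SE 0.127, adjusted p 0.0142). The D3 call was lost in 4 of 10 refits that each left out 1 mouse (D0 mouse 2 or 4, or D3 mouse 16 or 19), at log2 differences of 0.55 to 0.58, and also in the authors' table (0.55). At D2 it was gained without D0 mouse 5 (0.70, adjusted p 0.0163).

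**Figure D2:**
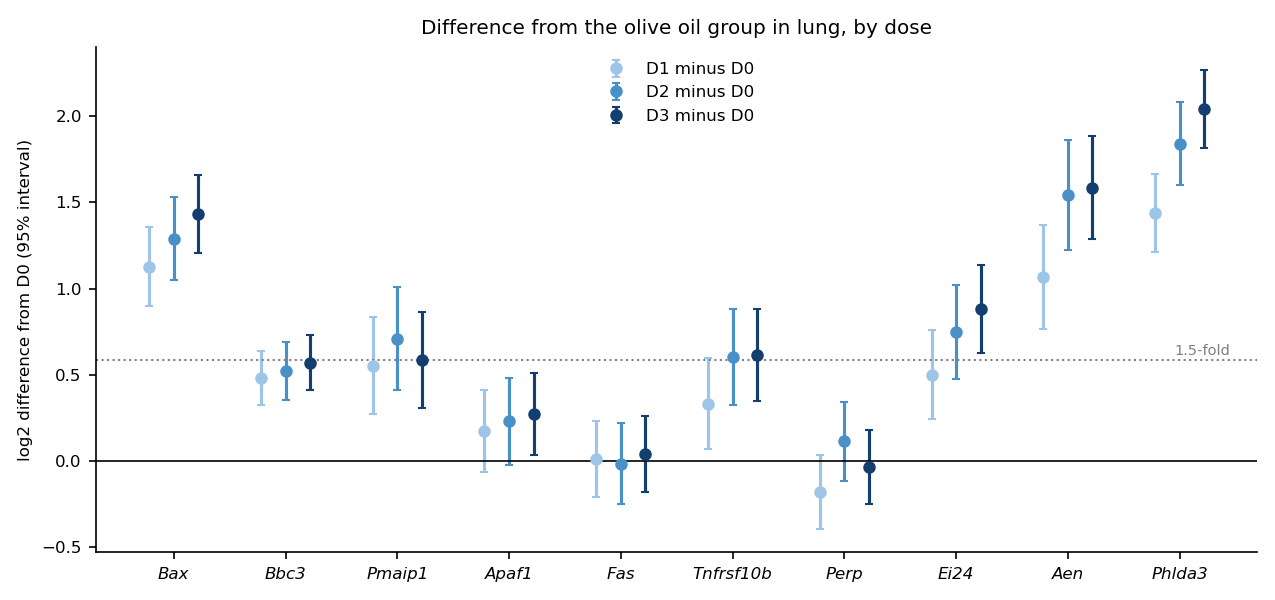
Log2 difference from D0 in lung (vertical axis) for the 10 genes (horizontal axis) at D1, D2 and D3, with 95% intervals as bars and a dotted line at 1.5-fold. Phlda3, Aen and Bax stand above the line with their whole intervals at all 3 doses, Bbc3 lies just under it, and Fas and Perp lie around 0.

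Of the membrane proteins Perp and Ei24, Ei24 was called in lung at D2 and D3 and Perp at no dose. Perp, a part of the desmosomes of layered epithelia, had lung ratios from -0.65 to -0.27 at D0 and from -0.69 to -0.22 at D3. Its log2 differences were -0.18, 0.12 and -0.04 and none was called. Ei24, a protein of the endoplasmic reticulum, had D0 ratios of 0.31, 0.39, 0.08, 0.06 and 0.26. The dosed mice stood at 0.96, 0.90, 0.37, 0.77 and 0.61 (D1), 0.79, 1.35, 1.07 and 0.67 (D2) and 1.27, 1.04, 1.21, 0.99 and 1.01 (D3). At D1 mouse 8 (0.37) overlapped the highest D0 mouse (0.39), and at D2 and D3 all mice were above D0. The log2 difference was 0.50 at D1 (SE 0.123, adjusted p 0.165), 0.75 at D2 (SE 0.130, adjusted p 0.00671) and 0.88 at D3 (SE 0.123, adjusted p 0.000468). The last is a 1.84-fold rise.

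Aen, a nuclease that degrades nucleic acids in dying cells, had D0 ratios of -0.51, -0.27, -0.61, -0.62 and -0.44. Its ratios were 1.07, 0.46, 0.21, 0.67 and 0.48 at D1, 1.05, 1.17, 0.92 and 1.09 at D2 and 1.64, 1.01, 0.89, 1.10 and 0.84 at D3. All dosed mice were above 0 and all D0 mice below. The log2 difference was 1.07 at D1 (SE 0.144, adjusted p 0.000812), 1.55 at D2 (SE 0.153, adjusted p 1.15e-05) and 1.59 at D3 (SE 0.144, adjusted p 1.7e-06), a 3.00-fold rise at D3. Its second probe gave 1.16, 1.55 and 1.63 and was called at all 3 doses.

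Phlda3, which competes with the survival kinase Akt for membrane lipids and so holds Akt back, rose most. Its ratios were 0.16, 0.00, 0.18, 0.07 and 0.06 at D0 and 1.66, 1.45, 1.35, 1.75 and 1.46 at D1. They were 1.83, 2.12, 2.03 and 1.76 at D2 and 2.37, 1.91, 1.94, 2.45 and 1.99 at D3. The gap between the highest D0 mouse (0.18) and the lowest dosed mouse (1.35) exceeded the range within any dose group. The log2 difference was 1.44 at D1 (SE 0.109, adjusted p 4.24e-07), 1.84 at D2 (SE 0.116, adjusted p 2.83e-08) and 2.04 at D3 (SE 0.109, adjusted p 1.41e-09), a 4.12-fold rise at D3. The adjusted p at D3 was the lowest of all probes.

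Groups that did not overlap D0, all of them higher, were counted for 4 genes at D1, 7 at D2 and 6 at D3. Over all probes that share was 0.912%, 1.58% and 2.05%. Within slides, each of which held arrays of several dose groups, the differences of Phlda3, Bax, Aen, Ei24, Bbc3, Pmaip1 and Tnfrsf10b were above 0 on all 4 slides that carried D0 with D1 or D3 and on all 3 that carried D0 with D2. For Phlda3 at D3 they ran from 1.76 to 2.38, and for Pmaip1 at D3 from 0.36 to 0.75. With slide as a block in the fit, Pmaip1 at D3 fell just under 1.5-fold (log2 difference 0.54, adjusted p 0.00349) and Tnfrsf10b was called at D2 as well (0.60, adjusted p 0.0409).

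Another normalization ended most of these calls. Loess, the main setting, removes a trend with signal strength within each array. With median centring in its place, the D3 minus D0 difference of the probes well above background on all lung arrays had a median of 0.35 in place of 0.01. The counts called fell to 0 at D1, 0 at D2 and 1 at D3 (Phlda3, log2 difference 2.37), although every difference called under loess stayed positive and larger. Over all probes the calls in either direction fell as well, from 78, 147 and 356 under loess to 0, 5 and 16. Relative to that shift, the D3 differences were 2.02 for Phlda3, 1.58 for Aen, 1.44 for Bax and 0.74 for Ei24. Tnfrsf10b (0.59) lay at the 1.5-fold threshold and Pmaip1 (0.56) under it. Fas (0.08) and Perp (0.06) then lay near 0.

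Between D3 and D1 in lung no member was called by limma, as was no probe (0% of all probes). All 10 differences were above 0, as were 50.5% of those of all probes, with a median of 0.21 against 0.00122. Of the members, 5 had an unadjusted p under 0.05, as did 2448 of all probes. Phlda3 was 0.60 higher at D3 than at D1 (SE 0.109, p 1.99e-05, adjusted p 0.277), and its 5 D3 mice were all above its 5 D1 mice. Ei24 was 0.38 higher (adjusted p 0.998), also without overlap between the groups, and Aen was 0.52 higher (adjusted p 0.964) with overlap. The share of all probes without overlap was not counted for this comparison. In the same comparison all 6 markers of heart muscle (median 1.10) and all 5 of fat (median 0.11) were above 0, none of them called, and their part in these differences was not tested.

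The genes whose log2 ratio followed each called member most closely over the 19 lung arrays were named by Pearson's r, as a description over arrays that share the dose groups and the reference RNA. For Phlda3 they were Cdkn1a (r = 0.994), Gdf15 (0.988) and Trp53inp1 (0.972). For Bax they were Aen (0.969), Phlda3 (0.967) and Gdf15 (0.967). For Aen they were Thyn1 (0.981), Ces2c (0.975) and Bax (0.969). Ei24 was followed by Bcl6b (0.941), Cd151 (0.937) and Zmat3 (0.933). The r values were lower for Pmaip1, with Cenpb (0.931), Slc30a1 (0.924) and Hgsnat (0.912), and for Tnfrsf10b, with Zmat3 (0.916), Ppp2r5d (0.915) and Fn1 (0.915). After the group means were removed, the highest r among pairs of members was that of Aen and Bax (0.807), followed by Aen and Pmaip1 (0.688). The lowest was that of Bbc3 and Phlda3 (-0.27), and Aen and Bbc3 had -0.092. Slide effects were not removed, and pairs of other genes were not set beside these.

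The rest of the death machinery was taken from lists of genes. Of 6 measured anti-apoptotic Bcl2 genes none was called in lung at D3, and the median log2 difference was 0.13. Bcl2l1, which encodes the protective protein Bcl-xL, stood at 0.56 (adjusted p 0.0138), under 1.5-fold. Of the 10 other pro-apoptotic Bcl2 genes, which include Bak1, the partner pore protein of Bax, none was called and the median was -0.02. Bak1 itself stood at 0.22 (adjusted p 0.138). None of 17 caspases, apoptosome partners and inhibitors was called either (median 0.05). Of 12 genes of death receptor signalling none was called (median 0.05). The adaptor Fadd at 0.41 (adjusted p 0.0392) and the receptor Eda2r at 0.39 (adjusted p 0.041) passed the adjusted p but stayed under 1.5-fold. Tnfsf10, the ligand of Tnfrsf10b, stood at 0.68 (adjusted p 0.0783).

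Of 12 further p53 targets linked to cell death, 2 were called in lung at all 3 doses. Trp53inp1, a nuclear cofactor of p53, was 1.31 higher at D3 (adjusted p 7.61e-07), and Zmat3, an RNA-binding zinc finger protein, 1.26 higher (adjusted p 0.000157). Of 18 p53 targets of cell cycle arrest, repair and feedback, 4 were called higher at D1, 8 at D2 and 9 at D3. At D3 Gdf15, a secreted stress cytokine, was 3.63 higher, Cdkn1a, the cell cycle inhibitor p21, 2.93 and Ccng1 (cyclin G1) 1.95. Ckap2 (1.02), the repair gene Mgmt (1.00), the kinase Plk2 (0.91), Sesn2 (0.86), Mdm2, the ligase that degrades p53 (0.83), and the translesion polymerase Polk (0.68) made up the 9. The median of these 18 genes at D3 was 0.55 and 14 of them were above 0. The percentages over all probes given above apply to these lists too, and no gene of any of them was called in forestomach.

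The labelled tissues carried most of their defining markers in the higher amount. All 8 markers of lung epithelium, among them the surfactant genes Sftpc and Sftpb, were well above background on all 19 lung arrays and had a higher mean ratio in lung. On forestomach arrays Sftpc was so on 4 of 19 and Sftpb on 1, but Scgb1a1, of the airway club cells, on all 19 (mean ratio 4.19, against 7.13 in lung), Aqp5 on 14 and Sftpd on 12. Of 8 markers of squamous epithelium, 7 had a higher mean ratio in forestomach, and the keratins Krt4 and Krt13 were well above background on all 19 forestomach arrays and on 0 lung arrays. Krt14 was so on 17 lung arrays and Krt5 on 12, and Trp63, a basal cell factor, was so on all 19 arrays of both tissues, with a higher mean in lung (0.51 against 0.17). In lung at D3 all 8 epithelial markers lay below D0 (median -0.10) and none was called. Heart muscle markers varied between lung samples: their mean relative to D0 ran from -0.71 to 0.63 at D0, from -0.92 to 1.06 at D1, from -0.93 to 2.05 at D2 and from -0.92 to 1.79 at D3. Against D0, 0 of 6 were higher at D1 (median -0.33), 4 at D2 (0.02) and 5 at D3 (0.51), with none called. For B lymphocytes (median -0.04 over 8 genes), T and NK cells (-0.05 over 8), macrophages and neutrophils (0.05 over 6) and fat (-0.03 over 5), no marker was called in lung at D3. Their part in the lung results was not tested.

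Forestomach is lined by layered squamous epithelium. Here no member was called at D1, D2 or D3 by limma, as was no probe (0% at each dose). The members with an unadjusted p under 0.05 numbered 1, 0 and 0, against 2402, 1737 and 1986 of all probes, and no dose group was free of overlap with D0 for any member. Over all probes, 0.264%, 0.471% and 0.498% lay wholly above D0 at the 3 doses, and 0.284%, 0.498% and 0.631% wholly below. The 1 was Bax at D1, which was 0.39 higher (p 0.0154, adjusted p 1). Its D0 ratios were -1.34, -0.49, -0.98, -0.96 and -1.11 and its D1 ratios -0.20, -0.70, -0.70, -0.62 and -0.73. All D1 mice but mouse 6 (-0.20) lay below D0 mouse 2 (-0.49). At D2 and D3 the Bax differences were 0.18 and 0.03.

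Phlda3 in forestomach had D0 ratios of -0.85, 1.08, 0.82, 1.25 and 1.05. At D3 the ratios were 0.86, 0.82 and 0.03 in mice 16, 17 and 19, and 1.11 and -0.08 on the 2 arrays of mouse 18. D0 mouse 1 (-0.85) stood far below the other D0 mice, and the 2 arrays of mouse 18 lay on either side of the other 3 mice of D3. Those 2 arrays also differed in the mean log2 ratio of 8 glandular stomach markers, at 1.03 and 6.26. The log2 difference at D3 was -0.12 (95% interval -0.89 to 0.66), an interval that does not reach the lung value of 2.04. It was 0.03 with the first array of mouse 18 alone and -0.27 with the second. With the 2 arrays as separate mice, no member was called in forestomach at any dose, where 0, 0 and 1 of all probes were. In the main fit the D3 difference was 0.21 for Aen (interval -0.17 to 0.58), 0.03 for Bax (-0.29 to 0.35) and 0.09 for Ei24 (-0.14 to 0.33). Bbc3 gave -0.02 (-0.30 to 0.26), Tnfrsf10b -0.12 (-0.62 to 0.38) and Fas -0.06 (-0.37 to 0.24).

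Apaf1 and Pmaip1 were dim in forestomach. Apaf1 was well above background on 4 of 19 arrays, and on none of the 5 at D1. Pmaip1 was well above background on 11 of 19. The D3 differences of -0.30 and -0.12 for these genes therefore rest in part on signals near background. Every other member was well above background on all 19 forestomach arrays, and all 10 were on all 19 lung arrays.

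**Figure D3:**
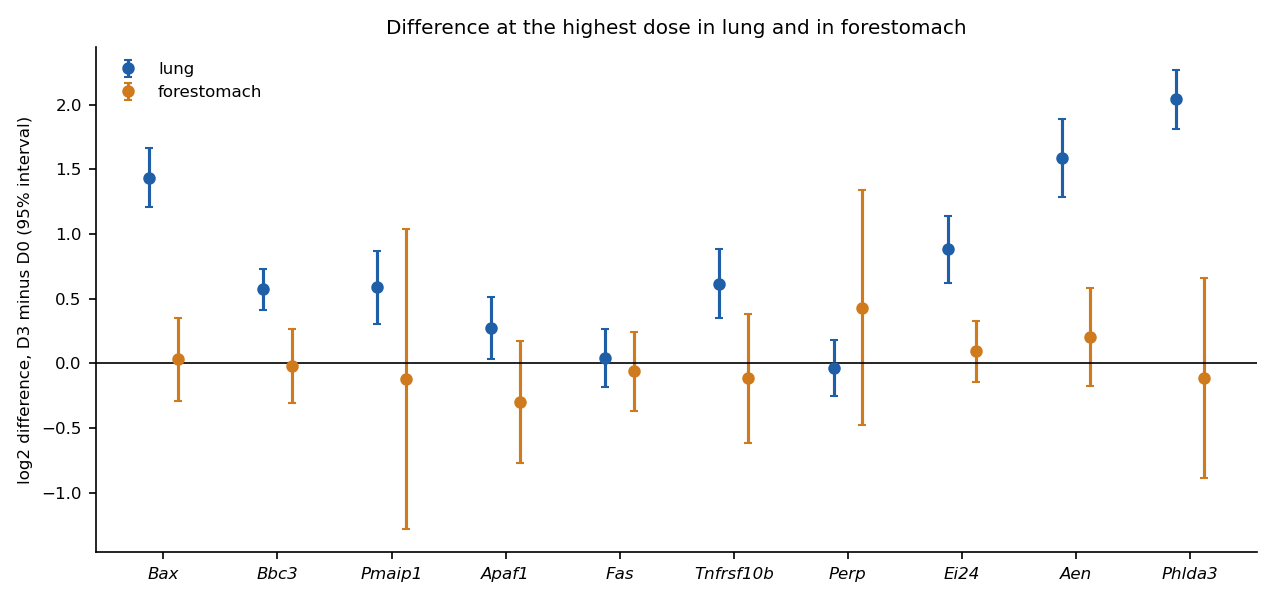
Log2 difference between D3 and D0 (vertical axis) for the 10 genes (horizontal axis), with lung in blue, forestomach in orange and 95% intervals as bars. The forestomach intervals of all 10 genes include 0, and those of Bax, Bbc3, Apaf1, Tnfrsf10b, Ei24, Aen and Phlda3 lie wholly below the lung value. This leaves out the error of the lung value, and the direct test of the tissue difference called only Phlda3, Bax, Aen and Ei24.

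The response in lung was then set against that in forestomach, as the difference of the 2 differences from D0. At D1 no member was called for it (0.0323% of all probes were called), with unadjusted p under 0.05 for 6 members and for 2529 probes. The second probe of Aen was called at D1 (1.17, adjusted p 0.0196). As both tissues came from the same mice, a fit with mouse as a fixed block was also made, and it called Aen (1.06, adjusted p 0.044) and Bax (0.74, adjusted p 0.0383) at D1. With mouse as a random block Aen alone was called (adjusted p 0.0333). Without D0 forestomach mouse 1, 2 members were called, Aen (1.16, adjusted p 0.0353) and Phlda3 (1.71, adjusted p 0.00204).

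At D2 the lung response was larger for 3 members, against 0.0611% of all probes called. It exceeded the forestomach response by 1.95 for Phlda3 (SE 0.391, adjusted p 0.0375), 1.39 for Aen (SE 0.244, adjusted p 0.00865) and 1.11 for Bax (SE 0.194, adjusted p 0.00865). The Phlda3 call was lost with mouse as a fixed block (adjusted p 0.112), with the log ratio of Feature Extraction (0.0867) and with both arrays of mouse 18 as replicates (0.0604) and was kept in 5 of 18 refits without 1 mouse, over which the value ran from 1.64 to 2.33. It was lost without any 1 of D0 forestomach mice 2 to 5, the 5 D0 lung mice, D2 forestomach mouse 12 or D2 lung mice 12, 13 and 15. The calls of Aen and Bax were kept in all 18.

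At D3 the lung response was larger for 4 members, against 0.167% of all probes (0.00539% had a smaller lung response). The excess was 2.16 for Phlda3 (SE 0.380, adjusted p 0.00482), 1.40 for Bax (SE 0.189, adjusted p 0.000137), 1.38 for Aen (SE 0.237, adjusted p 0.00366) and 0.79 for Ei24 (SE 0.172, adjusted p 0.0393). The first 3 were called in all 19 refits without 1 mouse, and Ei24 in 3, those without D0 forestomach mouse 4 or without D0 lung mouse 1 or 2 (0.72 to 0.86 over all 19). With the first array of mouse 18 alone, Ei24 was also lost (adjusted p 0.0621). With median centring no member was called at D2 or D3, and 2 of all probes were at each. The excess was then 1.66 for Phlda3, 1.01 for Bax, 0.92 for Aen and 0.43 for Ei24 at D3, while the median over probes that were bright everywhere was -0.29. For Tnfrsf10b (0.73, adjusted p 0.673), Bbc3 (0.59, adjusted p 0.13), Apaf1 (0.58, adjusted p 0.898) and Pmaip1 (0.71, adjusted p 1) the lung response was not shown to differ from the forestomach response. With slide as a block in the limma fit, Bbc3 was called at D3 (0.61, adjusted p 0.0412). Of the other lists, Gdf15 (4.07), Cdkn1a (3.01), Ckap2 (1.40) and Trp53inp1 (1.23) had a larger lung response at D3 by the same test.

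In mice given olive oil alone the members differed between the tissues in level, not in 1 direction. Of the 10 genes, 3 were higher in lung and 1 in forestomach, where 8.62% and 7.6% of all probes were. Perp stood apart. Its D0 ratios were 4.14, 6.27, 5.54, 5.50 and 6.12 in forestomach and -0.35, -0.37, -0.38, -0.27 and -0.65 in lung, a 60.3-fold higher level in forestomach (log2 difference -5.92, SE 0.300, adjusted p 2.59e-17). With median centring this log2 difference was -5.00. Fas was higher in lung by 2.06 (SE 0.124, adjusted p 2.72e-15), Bbc3 by 1.77 (SE 0.103, adjusted p 9.26e-16) and Pmaip1 by 1.16 (SE 0.386, adjusted p 0.0217). Pmaip1 was well above background on only 2 of the 5 D0 forestomach arrays, so the size of its difference is uncertain, and it was 2.51 with the log ratio of Feature Extraction (adjusted p 0.0409). The Pmaip1 groups overlapped, because forestomach ratios ran from -2.49 to 0.24, and its call was lost without D0 forestomach mouse 2 or 5 or D0 lung mouse 2 (0.81, 1.02 and 1.07). Ei24 was lower in lung by 0.52 (adjusted p 0.00073) and Bax higher by 0.35 (adjusted p 0.0406), both under 1.5-fold. With median centring the Ei24 value turned to 0.06, while the median over probes that were bright everywhere was 0.46. Relative to that shift the Ei24 value was -0.40. With the log ratio of Feature Extraction the Ei24 value was -0.74 and was called (adjusted p 5.56e-07). Aen and Tnfrsf10b were not called, at 0.07 and 0.06 (adjusted p 0.827 and 0.867). Apaf1, well above background on 1 of the 5 D0 forestomach arrays, stood at 0.17 (adjusted p 0.524), and at 1.33 with the log ratio of Feature Extraction, where it was called (adjusted p 0.00449). For Phlda3 the lung value minus the forestomach value was -0.58 (adjusted p 0.102). Without D0 forestomach mouse 1 it was -0.96 and was called (adjusted p 0.000209). In D0 forestomach, the mean log2 ratio of 8 glandular stomach markers was 0.65 in mouse 2 and 1.02 in mouse 5. That mean was 6.66, 5.67 and 5.61 in mice 1, 3 and 4. The part of glandular tissue in these D0 differences was not tested.

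**Figure D4:**
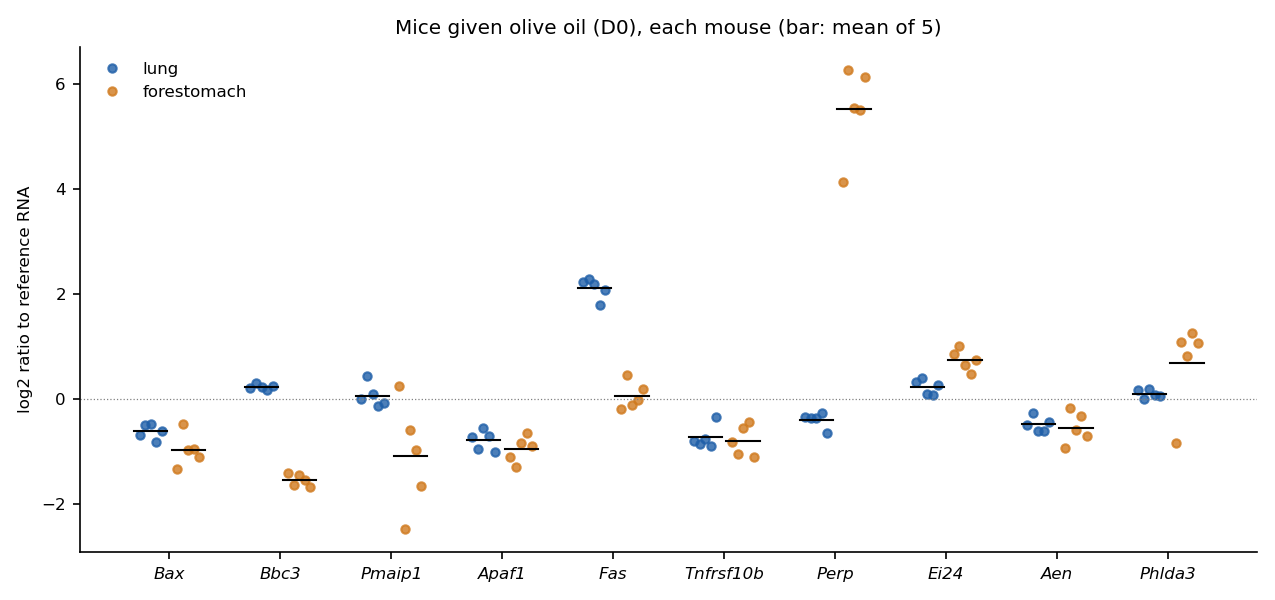
Log2 ratio to the reference RNA (vertical axis) of the 10 genes (horizontal axis) in each of the 5 D0 mice, with lung in blue, forestomach in orange and black bars for group means. Perp in forestomach lies between 4.14 and 6.27, far above its lung values, while Fas and Bbc3 are higher in lung without overlap.

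Forestomach mice of 1 dose group differed in Perp, Phlda3 and Pmaip1 by more than lung mice did. At D0 the SD was 0.841 for Perp in forestomach and 0.145 in lung. Markers of the adjoining glandular stomach varied too: the mean log2 ratio of 8 such genes, among them the gastrokine Gkn2 and the proton pump subunit Atp4a, lay between 0.42 and 1.03 on 6 forestomach arrays and between 4.70 and 6.66 on the other 13. Relative to the D0 mean it ran from -3.27 to 2.74 at D0, from -3.50 to 1.98 at D1, from -3.04 to 1.76 at D2 and from -2.89 to 2.34 at D3, and all 8 markers lay above D0 at D3 (median 1.10, none called). Muc5ac and Tff1 were well above background on all 19 arrays and Atp4a on 13.

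On the 6 arrays with few glandular transcripts Perp lay between 6.08 and 6.39, Phlda3 between 0.96 and 1.12 and Pmaip1 between -2.49 and -1.25. On the other 13 the ranges were 4.14 to 6.49, -0.85 to 1.25 and -1.79 to 0.61. D0 mouse 1, with the highest glandular mean (6.66), had the lowest Perp (4.14) and the lowest Phlda3 (-0.85) of all forestomach arrays. D2 mouse 12 had the highest Pmaip1 (0.61). With the glandular mean as a covariate no member was called in forestomach at any dose, as was no probe. The D3 differences were then 0.03 for Phlda3 (SE 0.318), 0.61 for Perp (SE 0.362) and -0.39 for Pmaip1 (SE 0.413).

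**Figure D5:**
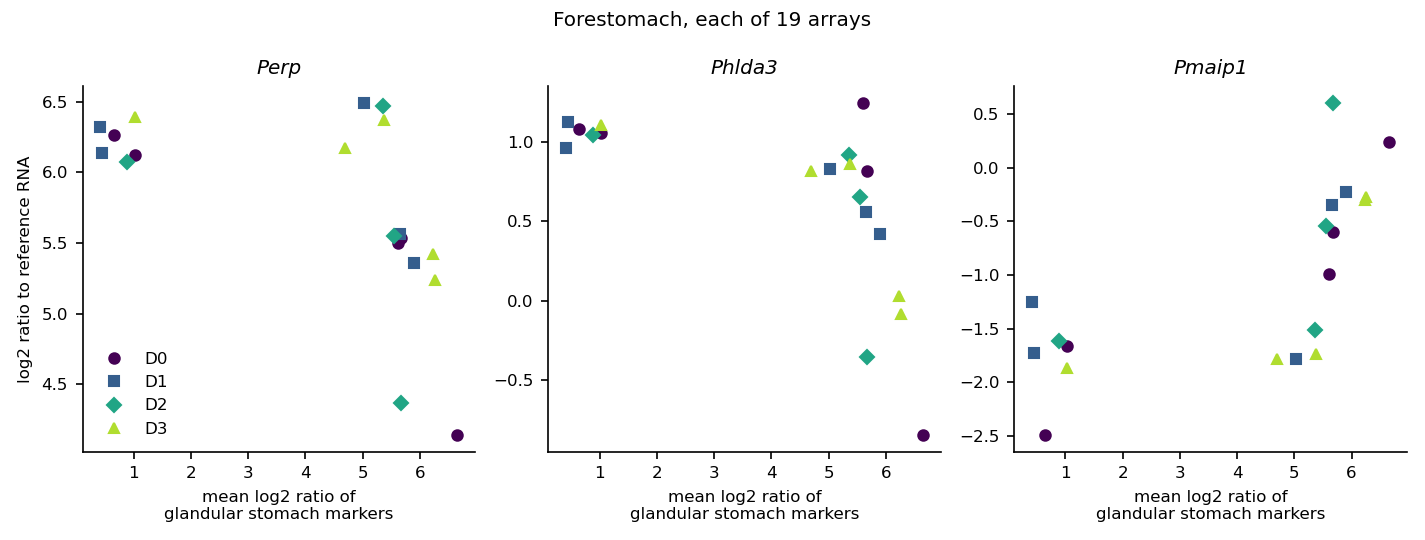
Log2 ratio of Perp, Phlda3 and Pmaip1 (vertical axes) against the mean log2 ratio of 8 glandular stomach markers (horizontal axis) on each of 19 forestomach arrays, with a symbol and colour for each dose group. The arrays fall into 6 with a low and 13 with a high glandular mean, both holding mice of all 4 dose groups, and the lowest Perp and Phlda3 values are on arrays with a high one.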

How the data were processed

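RNA of lung and forestomach was measured on 38 two-colour Agilent arrays (19 per tissue, 62976 spots each). Spot intensity values were made by the authors with Feature Extraction 10.7.3.1, as deposited without background subtraction or normalization. Per the file headers, each file carries a log10 ratio (Cy5/Cy3) for which that software had corrected background and dye effects. A further table deposited by the authors gives what were taken as log2 ratios, as its scale is not named and its columns had slopes of 0.990 to 0.998 on the values computed here. Their stated workflow normalized median signals by a local regression without background correction.

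Here median intensities were loess-normalized within arrays as log2(Cy5/Cy3). Control spots and flagged outliers (372 values) were left out, and spots of 1 probe were averaged. No dyes were swapped, and Cy5 always held the tissue RNA. On an array, 30.1% to 63.8% of probes were well above background. The number of arrays limits the precision. Symbols came from RefSeq (GRCm38.p6) through the accessions. The array files name mm9, so no coordinates were taken from them.

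All fits ran in R 4.3.3. For each tissue limma 3.58.1 fitted a mean for every dose group, and both tissues in 1 fit for their difference. MAANOVA, the study's tool, was not used. Intervals are 95% and use limma's moderated spread. The scripts were tested on simulated data. The named genes were all 10 members and the 3 genes most correlated with each member called in lung at D3. Of the other lists they were genes called in lung, in forestomach or for the difference of tissues at a dose, with some not called. Calls between the tissues at D0 were not used to name genes. The members and lists were chosen with earlier results of these data known. Alternatives covered normalization, background, source of the ratio, dim probes, outlier spots, slide, scan day, mouse, mouse 18, glandular markers and each mouse left out. Mouse numbers pair the tissues of 1 animal. Deviations from group means correlated between the tissues in all 18 mice (0.075 to 0.249). Both tissues of a mouse lay on the same slide, save the second array of mouse 18, which lay on the slide of lung mouse 20. These correlations therefore cannot tell a shared animal from a shared slide. Figures were drawn with matplotlib 3.10.9 in Python 3.11.15.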

Additional observations from a re-analysis of the deposited data

Results flagged for a closer look

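Dixon's criterion flags 1 mouse that stands apart from the others, which chance alone meets in about 1 in 20 sets of values. Sets of different genes came from the same mice here and are not independent. In 11 of 80 sets, each of 1 gene in 1 dose group of a tissue, 1 mouse was flagged. In lung these were D0 mouse 5 for Perp (-0.65) and for Tnfrsf10b (-0.36), D1 mouse 6 for Fas (2.24), D1 mouse 8 for Pmaip1 (0.23), D2 mouse 15 for Bbc3 (0.57) and D3 mouse 17 for Apaf1 (-0.26). In forestomach they were D0 mouse 1 for Phlda3 (-0.85), D1 mouse 6 for Bax (-0.20), Fas (0.47) and Tnfrsf10b (-1.66), and D2 mouse 11 for Bbc3 (-2.00).

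Some members were called for a difference of the response to DBahA between lung and forestomach. At D2 these were Phlda3 (1.95), Aen (1.39) and Bax (1.11), where 0.0611% of all probes were called. At D3 they were Phlda3 (2.16), Bax (1.40), Aen (1.38) and Ei24 (0.79), where 0.167% of all probes were called with a larger lung response. All were larger in lung. Without 1 mouse, Phlda3 at D2 was called in 5 of 18 refits and Ei24 at D3 in 3 of 19. None of these calls was kept with median centring.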

How the results depend on the processing

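With median centring in place of loess, lung at D1 and at D2 had 0 members called each and lung at D3 had 1, where 0, 5 and 16 of all 55681 probes were called. For the difference of tissues, 0 were called at D2 and 0 at D3, as against 2 of all probes at each. The cause was not tested. The D0 difference between the tissues of Ei24, -0.52 under loess, turned to 0.063. Relative to the median shift of 0.461 over probes bright everywhere, it was -0.398. With only the 2 groups compared in the fit, which leaves fewer samples, 3 members were called in lung at D2, where Ei24 (adjusted p 0.0512) and Pmaip1 (0.0936) were lost. For the difference of tissues at D1, where no member was called, 1 was called when any probe of a member counted, 2 with mouse as a fixed replicate block, 1 with mouse as a random replicate block, 1 with scan day as a block and 2 with slide as a block. Refits without 1 mouse gave 0 to 2 there. Such refits called 3 to 4 members in lung at D1, 4 to 5 in lung at D2, 4 to 6 in lung at D3, none between D3 and D1 and none in forestomach. They called 2 to 3 for the difference of tissues at D2, 3 to 4 for that at D3, and 3 to 5 between the tissues at D0. The fixed replicate block also ended the call of Phlda3 for the difference of tissues at D2 (1.95, adjusted p 0.112). Neither block changed another call.

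Of 110 values of a member in a comparison, 25 were called, and 74 were called under no setting. Of these 74, the sign turned for 31 under some alternative and for 27 when 1 mouse was left out. Forestomach counts stayed at 0 under every alternative run, with 4 or 5 mice a group and wide intervals, and Apaf1 and Pmaip1 near background there. In the main fit 0% of all probes were called in forestomach at each dose.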
